A study of Mus musculus with 18 samples.

Results

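The TNF receptor superfamily was followed through 10 of its receptors, chosen by gene symbol: Tnfrsf1a, Tnfrsf1b, Tnfrsf4, Tnfrsf9, Tnfrsf10b, Tnfrsf18, Tnfrsf25, Cd27, Fas and Ltbr. All 10 were among the 54309 genes counted in sorted NK cells and ILC1, and 10 passed the filter on low counts that left 13594 genes. In sorted macrophages 9 of them, all except Cd27, were among the 13759 genes counted, and those 9 were tested.

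All libraries came from livers of female mice bearing metastases of MC38 cells, a colon adenocarcinoma line of the mouse that was given by injection in the spleen. Mice were 8 to 10 weeks old and were analyzed 20 days after injection. The labels name no strain, genotype or further treatment for these libraries. MFL NK (lin- CD45+ NKp46+ CD49a- CD49b+) and MFL ILC1 (CD49a+ CD49b- in the same gate) came from metastasis-free liver, and LM CD49a- NK (CD49a- CD49b+) and LM CD49a+ NK (CD49a+ CD49b+) from liver metastasis, with 3 libraries each from pools of 6 to 8 samples. The titles of the LM CD49a+ NK libraries call them ILC1, and they were grouped here by their cell type and sort labels. LM was digested with Liberase while MFL parenchyma was smashed and filtered, so site and dissociation cannot be told apart. The macrophages, lin- CD45+ CD11b+ cells of liver metastasis, were split into F4/80high and F4/80low, which the study calls F4/80int, with 3 libraries each. The kits differed between the 2 experiments, so no level is compared between them.

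Receptors of this family are trimerized by ligands of the TNF superfamily. Those with a death domain, here TNFR1 (Tnfrsf1a), TRAIL receptor (Tnfrsf10b), DR3 (Tnfrsf25) and Fas, can engage caspases or NF-kB, while the others, such as TNFR2 (Tnfrsf1b), OX40 (Tnfrsf4), 4-1BB (Tnfrsf9), GITR (Tnfrsf18), CD27 and the lymphotoxin beta receptor (Ltbr), bind TRAF adaptors and feed the canonical and noncanonical NF-kB routes. 4-1BB, OX40, GITR and CD27 are known as costimulatory receptors of T cells and NK cells, and Ltbr is known mainly from stromal and myeloid cells.

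In the GENCODE vM39 annotation of GRCm39, 5 of the 10 genes lie on chromosome 4 and 3 on chromosome 6. Tnfrsf4 (chr4:156098293-156101069) and Tnfrsf18 (chr4:156110621-156113352) are neighbours on the plus strand, and both lie inside the antisense long noncoding gene Gm16008. The libraries were stranded, but the strand setting of the counting is not given in the sources used here. Sequences just upstream of the start of the annotated canonical transcript are shown for the 4 receptors with the largest fall in F4/80high macrophages, because these genes moved together there. They are the stretches, within 250 bases before the start, that hold no exon of a protein-coding gene, all on the plus strand of GRCm39. The stretch is chr4:156110371-156110620 for Tnfrsf18, chr4:151012206-151012374 for Tnfrsf9, chr4:156098068-156098292 for Tnfrsf4 and chr19:34267809-34268000 for Fas. Capitals mark a match to the AP-1 motif TGANTCA, which reads the same on both strands.
Tnfrsf18: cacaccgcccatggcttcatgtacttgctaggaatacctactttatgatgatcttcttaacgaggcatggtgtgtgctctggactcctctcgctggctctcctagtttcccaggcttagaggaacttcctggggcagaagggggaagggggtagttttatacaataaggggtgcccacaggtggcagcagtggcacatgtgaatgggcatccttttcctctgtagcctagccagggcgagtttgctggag
Tnfrsf9: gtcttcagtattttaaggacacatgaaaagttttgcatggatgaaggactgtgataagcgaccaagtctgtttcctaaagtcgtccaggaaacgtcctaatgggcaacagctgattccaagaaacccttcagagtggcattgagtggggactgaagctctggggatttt
Tnfrsf4: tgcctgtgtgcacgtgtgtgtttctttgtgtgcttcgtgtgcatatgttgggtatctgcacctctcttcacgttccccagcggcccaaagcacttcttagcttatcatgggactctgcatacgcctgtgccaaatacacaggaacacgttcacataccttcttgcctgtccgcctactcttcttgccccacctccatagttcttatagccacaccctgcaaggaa
Fas: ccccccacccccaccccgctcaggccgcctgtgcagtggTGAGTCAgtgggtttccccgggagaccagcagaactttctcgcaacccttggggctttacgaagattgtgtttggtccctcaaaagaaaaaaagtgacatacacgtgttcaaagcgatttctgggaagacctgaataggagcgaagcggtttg
The remaining bases before the Tnfrsf9 start lie in an exon of another Tnfrsf9 transcript and hold the only match to the NF-kB consensus among the 10 genes. The 30 bases around it are at chr4:151012404-151012433 on the plus strand, with the match in capitals.
Tnfrsf9 NF-kB match: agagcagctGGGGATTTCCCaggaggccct
The capitals are overlapping matches of the consensus on both strands, from 43 to 33 bases before the start, and a TGAGTCA follows from 15 to 9 bases before it. In the whole windows of 250 bases, the NF-kB consensus was found in 1 and the AP-1 motif in 2 of the 5 receptors that fell in F4/80high macrophages. Of all 21770 windows of that length before protein-coding genes, 7.62% held the NF-kB consensus and 6.17% the AP-1 motif. A match is a run of letters and not a measured site.

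Total counts lay between 8795721 and 14386834 per lymphocyte library and between 21278959 and 32267015 per macrophage library. Counts are given as CPM, a gene's reads scaled to a common library size, with library sizes set by the trimmed mean of M-values (TMM). Groups were compared with edgeR's quasi-likelihood test, and a gene was called at a Benjamini-Hochberg adjusted p under 0.1 over all genes tested. The macrophage libraries were far more alike than the lymphocyte libraries, with a common biological coefficient of variation of 0.162 against 0.891. The markers of NK cells and ILC1 followed the sort: the 6 shared markers summed to between 4890 and 5870 CPM in all 12 libraries, and Eomes with Itga2 reached at most 94.5 CPM in MFL ILC1 and at least 566 CPM in the other groups. The T cell list of 8 genes stood at 238 to 680 CPM in MFL ILC1, almost all of it Cd3g, and at no more than 35.7 CPM elsewhere. In bulk libraries, fewer cells of a type and less RNA per cell cannot be told apart.

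More receptors were called in macrophages than in any comparison of lymphocytes. In F4/80high macrophages 5 of the 9 receptors were called lower than in F4/80low macrophages, led by Tnfrsf18 (22.9-fold), Tnfrsf9 (10.1-fold) and Tnfrsf4 (5.49-fold), and 1, Tnfrsf10b, was called higher. The background was high, since 54.9% of all genes were called in this comparison, 27.1% of all genes as lower in F4/80high, and 58.4% of genes had groups that did not overlap. Of the 9 receptors 6 were called and 6 did not overlap, 66.7% for each count, so the share of receptors changed stood near that of the genes at large, and the size and direction of the members' changes are described below. The median log2 fold change of the 9 receptors was -0.91, against 0.01 over all genes.

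**Figure D1:**
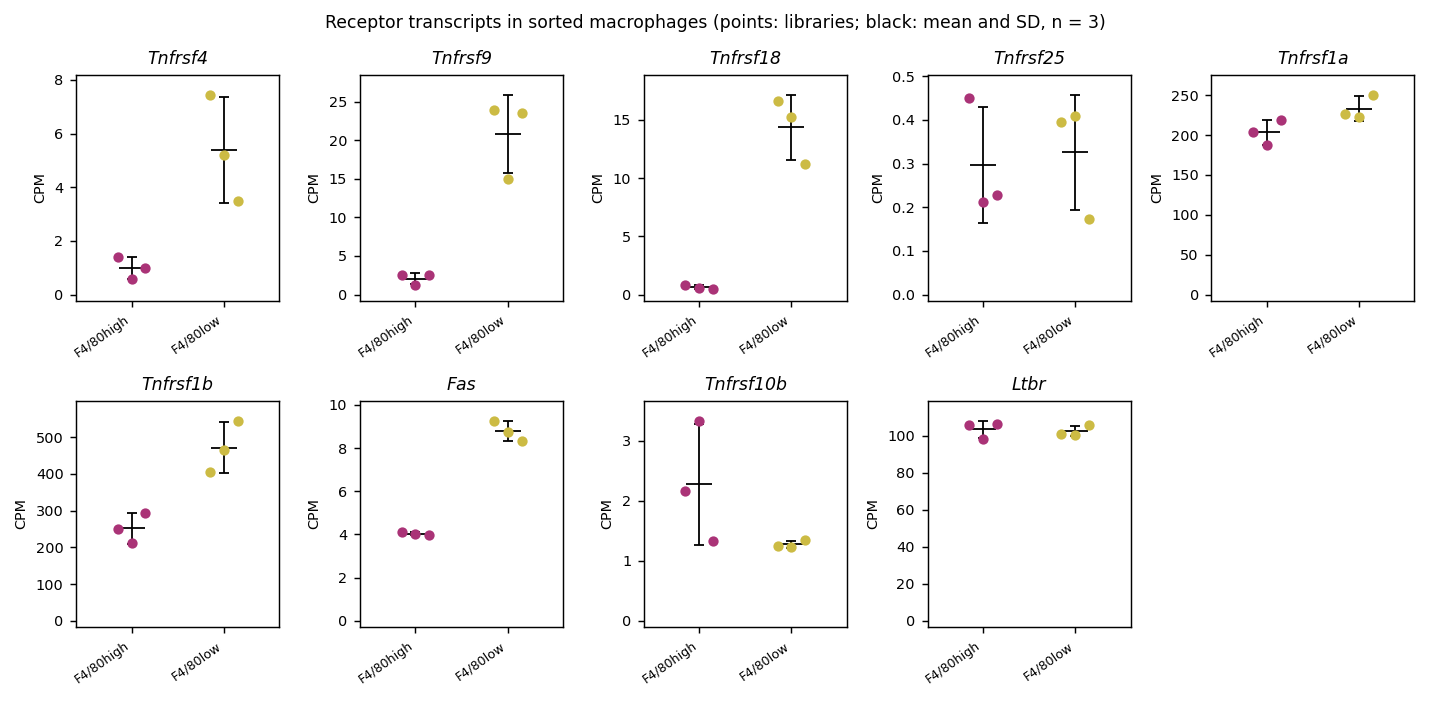
CPM of 9 receptors in F4/80high and F4/80low macrophages, 1 panel a gene with its own linear axis; points are libraries and black marks are the mean and SD (n = 3). Tnfrsf4, Tnfrsf9, Tnfrsf18, Tnfrsf1b and Fas sit lower in every F4/80high library, while the Ltbr values lie between 98.2 and 106.6 CPM in all 6 libraries.

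Among the costimulatory receptors, Tnfrsf18 (GITR) stood at 0.856, 0.567 and 0.487 CPM in the F4/80high libraries and at 16.6, 15.2 and 11.2 CPM in the F4/80low libraries. Its groups lay far apart, and its log2 fold change was -4.52 ± 0.26 (SE, edgeR adjusted p = 7.19e-06). Behind these levels stood 15 to 19 counts per F4/80high library and 260 to 507 per F4/80low library. Tnfrsf9 (4-1BB) was at 2.48, 1.24 and 2.50 CPM in F4/80high and at 23.9, 14.96 and 23.6 CPM in F4/80low, without overlap. Its log2 fold change was -3.33 ± 0.30 (edgeR adjusted p = 5.88e-05). Tnfrsf4 (OX40) was at 1.40, 0.567 and 1.00 CPM against 7.45, 5.19 and 3.50 CPM, also without overlap, with a log2 fold change of -2.46 ± 0.39 (edgeR adjusted p = 0.00127). Even in F4/80low these 3 receptors were low beside the TNF receptors: per kilobase of the canonical transcript they reached 11.4 (Tnfrsf18), 9.84 (Tnfrsf9) and 5.19 (Tnfrsf4) CPM in F4/80low.

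Both TNF receptors were far more abundant. Tnfrsf1b (TNFR2), which binds TRAF proteins, was at 251, 211 and 293 CPM in F4/80high and at 406, 464 and 545 CPM in F4/80low. The groups did not overlap and the log2 fold change was -0.91 ± 0.15 (edgeR adjusted p = 0.00142), a 1.87-fold lower level. Tnfrsf1a (TNFR1), the death domain receptor for the same ligand, was at 203, 187 and 219 CPM against 226, 223 and 251 CPM. Its libraries did not overlap either, but the log2 fold change of -0.20 ± 0.09 was not called (edgeR adjusted p = 0.112). It passed the threshold with 4 other treatments of the data, among them DESeq2 (adjusted p = 0.087) and limma-voom (adjusted p = 0.0634), and without F4/80high replicate 3 (adjusted p = 0.0603). Per kilobase, Tnfrsf1a stood at 93.5 and Tnfrsf1b at 51.2 CPM in F4/80high, whereas in F4/80low they stood at 107 and 96.0 CPM.

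Of the other death domain receptors, Fas was at 4.10, 4.04 and 3.96 CPM in F4/80high and at 9.26, 8.74 and 8.35 CPM in F4/80low. The spread within each group was small and the log2 fold change was -1.12 ± 0.15 (edgeR adjusted p = 0.000418). Tnfrsf10b, the mouse TRAIL death receptor, was at 2.16, 3.33 and 1.33 CPM in F4/80high and at 1.25, 1.23 and 1.34 CPM in F4/80low. The F4/80high library with 1.33 CPM lay within the range of the F4/80low libraries. Its log2 fold change of 0.84 ± 0.36 was called (edgeR adjusted p = 0.0892), but leaving out any library except F4/80high replicate 3 ended the call, in 5 of 6 cases, with adjusted p between 0.141 and 0.317. Tnfrsf25 (DR3) lay between 0.173 and 0.45 CPM in all 6 libraries, 4 to 12 counts, and no difference was detectable at this depth (log2 fold change -0.19 ± 0.52, edgeR adjusted p = 0.786).

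Ltbr, whose product takes lymphotoxin alpha-beta and LIGHT, was at 106, 98.2 and 106.6 CPM in F4/80high and at 101, 100.6 and 106 CPM in F4/80low. The groups overlapped and the log2 fold change was 0.01 ± 0.08 (edgeR adjusted p = 0.897). With 2348 to 3288 counts per library this was among the most precise of the 9 values. The 5 receptors called lower were called in each of the 11 other treatments of the data, leaving out each library included. Of these, the fit without the filter on low counts repeats the main fit, since the filter removes no macrophage gene.

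The same libraries differed in the genes the receptors signal through, in a comparison where 54.9% of all genes were called, 27.1% as lower. All 5 NF-kB subunits were called lower in F4/80high, from Relb (log2 fold change -1.65 ± 0.13, edgeR adjusted p = 3.29e-05) and Rel (-1.61 ± 0.22, adjusted p = 0.000591) to Rela (-0.43 ± 0.07, adjusted p = 0.00198), and the list's median was -1.17. Of 10 genes of NF-kB feedback 9 were called lower, with a median of -1.18. Tnip3 fell from 63.1 to 15.5 CPM and Nfkbia, the inhibitor that holds NF-kB in the cytoplasm, from 402 to 132 CPM, while Nfkbiz was not called (log2 fold change -0.12, edgeR adjusted p = 0.713). Of 13 genes of the ubiquitin and kinase steps 10 were called lower and none higher, with a median of -0.60. Map3k14, the NIK kinase of the noncanonical route, had the largest fall (log2 fold change -1.88 ± 0.14, edgeR adjusted p = 2.34e-05), followed by Ikbkb, Birc2 and Birc3 with log2 fold changes of -1.33, -1.24 and -1.06.

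Of the 6 TRAF adaptors 4 were called lower, with a median of -0.75, where 54.9% of all genes were called, 27.1% as lower. Traf1 stood at 9.16 CPM in F4/80high and 134 CPM in F4/80low (log2 fold change -3.88 ± 0.18, edgeR adjusted p = 2.86e-06), and Traf5, Traf6 and Traf3 changed by -0.87, -0.83 and -0.51 on the log2 scale. Traf2, the adaptor most of these receptors share, was at 30.5 and 33.9 CPM and was not called (edgeR adjusted p = 0.193). The 10 genes of death receptor signaling moved less: 5 were called lower, 1 higher and 4 were not called, with a median of -0.19. Tradd, the adaptor of TNFR1, had a log2 fold change of -0.54, Cflar, which restrains caspase-8, had -0.40, and Fadd, the adaptor of Fas, had 0.38 ± 0.10 (edgeR adjusted p = 0.0144).

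**Figure D2:**
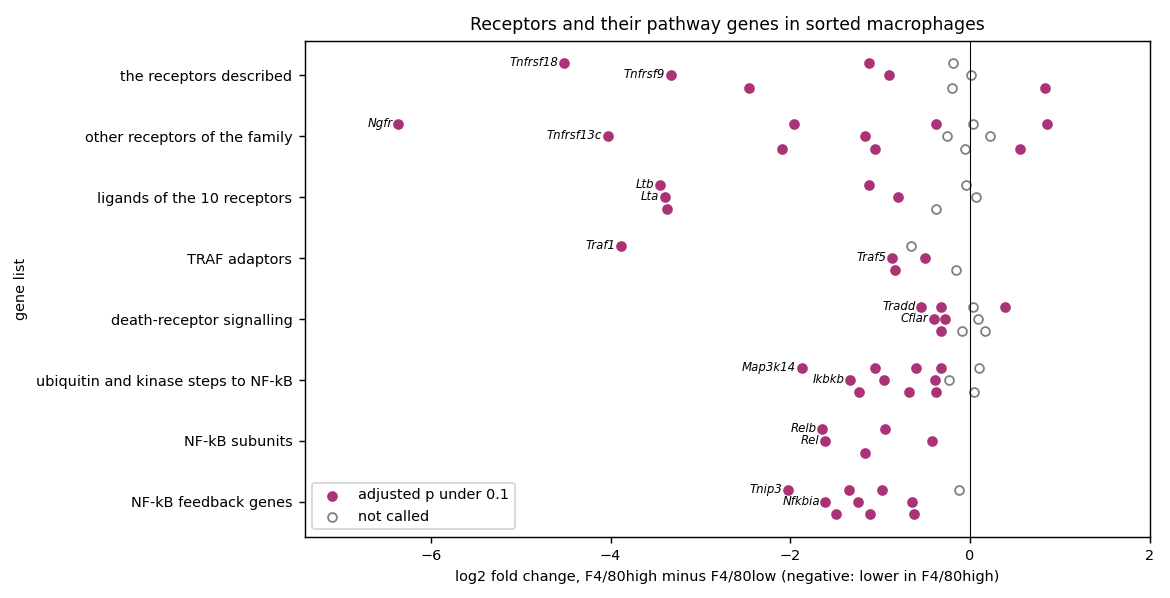
Log2 fold change of F4/80high minus F4/80low for each tested gene of 8 lists, with filled points for edgeR adjusted p under 0.1; the genes at the left of each list are named. Filled points lie left of 0 for all 5 NF-kB subunits and 9 of 10 feedback genes, while the death-receptor list spans -0.54 to 0.38.

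Of 18 other receptors of the family, 13 were in the macrophage counts, and 7 were called lower and 2 higher in F4/80high. Their median was -0.38, in the comparison where 54.9% of all genes were called, 27.1% as lower. Ngfr fell from 16.7 CPM in F4/80low to 0.204 CPM in F4/80high and Relt from 105 to 24.8 CPM, while Tnfrsf23 and Cd40, a receptor by which T cells activate myeloid cells, were 2.25-fold and 2.08-fold lower. Tnfrsf11a, which encodes RANK, was higher (171 against 94.0 CPM, log2 fold change 0.86 ± 0.10, edgeR adjusted p = 0.000259), as was Tnfrsf22 (log2 fold change 0.55, adjusted p = 0.0761). Of 11 ligands of the receptors described, 8 were counted, and 5 were called lower and none higher, with a median of -0.96. Ltb was at 2.61 and 28.0 CPM (log2 fold change -3.45 ± 0.33, edgeR adjusted p = 7.98e-05) and Tnfsf9, the ligand of 4-1BB, at 17.7 and 38.5 CPM (-1.12 ± 0.16, adjusted p = 0.000684). Tnfsf4, the ligand of OX40, and Lta were also lower, both under 1.2 CPM, and Tnfsf14 was 1.74-fold lower.

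Markers of other cell types moved with the same contrast. The 5 dendritic cell markers summed to 8.04 to 10.4 CPM in F4/80high and to 229 to 344 CPM in F4/80low, where Flt3, Zbtb46 and Cd209a each exceeded 42 CPM in every library. Of the 5, 4 were called lower in F4/80high. Clec9a was at 1.31 to 2.43 CPM in F4/80high and 3.89 to 13 CPM in F4/80low. Xcr1 overlapped, at 0.85 to 2.01 and 0.605 to 4.13 CPM. The 4 monocyte markers summed to 451 to 568 and to 2030 to 2260 CPM. The shared NK and ILC1 markers stood at 6.91 to 15.7 and 67.6 to 134 CPM, with Ncr1 absent from the counts. In F4/80low most of this sum was Klrk1 (58.1 to 102 CPM). Il2rb reached at most 22.3, Nkg7 4.24 and Klrb1c 3.04 CPM there. The T cell list stood at 6.27 to 16.3 and 10 to 27.2 CPM, and Foxp3 with Ikzf4 at 0.921 to 1.31 and 4.02 to 12.4 CPM. The 9 macrophage markers summed to 19200 to 25100 CPM in F4/80high and 10200 to 12900 CPM in F4/80low, and Adgre1, the gene of F4/80 itself, followed the sort at 806 to 1167 and 124 to 160 CPM. The tumor epithelium list was at 8.30 to 11.8 CPM in F4/80high and 197 to 281 CPM in F4/80low. It was read from Epcam (0.162 to 0.36 and 7.70 to 17.2 CPM) and Cdh1 (8.06 to 11.5 and 189 to 264 CPM), both called lower in F4/80high, while Krt8, Krt18 and Krt19 were absent from the counts. The endothelial list stood at 15.9 to 18.4 and 38.9 to 43.2 CPM, and the neutrophil list at 73.5 to 104 and 85.6 to 123 CPM with 3 of 4 markers called lower in F4/80high. B cell markers (18.1 to 33.4 and 6.27 to 17.2 CPM) and hepatocyte markers (1.43 to 8.5 and 1.64 to 4.47 CPM) were low in both. The 4 Kupffer cell markers reached no more than 10 CPM in any library. The part of these cells in the receptors' differences was not tested.

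**Figure D3:**
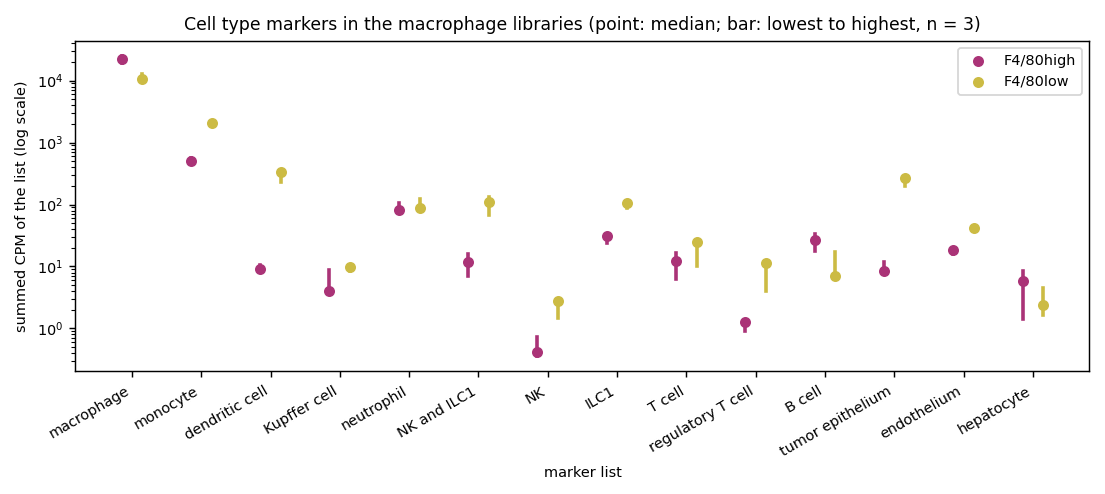
Summed CPM (log axis) of 14 marker lists in F4/80high and F4/80low macrophages; points are medians and bars run from the lowest to the highest of 3 libraries. Dendritic cell markers stand at 8.04 to 10.4 CPM in F4/80high and 229 to 344 CPM in F4/80low, and macrophage markers lie the other way.

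In NK cells and ILC1 the 10 receptors fell into a pair of sets by level. Tnfrsf1a, Tnfrsf1b, Tnfrsf9, Tnfrsf18 and Cd27 were above 9 CPM in every one of the 12 libraries. Tnfrsf4, Tnfrsf10b, Tnfrsf25, Fas and Ltbr were at 12.3 CPM or less in every library and each had at least 2 libraries at 0 counts. Per kilobase of transcript, Tnfrsf1b (34.5 CPM), Tnfrsf18 (33.1) and Tnfrsf9 (29.6) led in MFL NK, Tnfrsf18 (69.5), Tnfrsf1a (45.0) and Cd27 (43.9) in MFL ILC1, Tnfrsf1b (88.4) and Tnfrsf9 (44.9) in LM CD49a- NK, and Tnfrsf9 (74.0), Tnfrsf1b (70.1) and Tnfrsf18 (66.1) in LM CD49a+ NK. The 5 comparisons between these groups share libraries, and each is given by its own values.

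**Figure D4:**
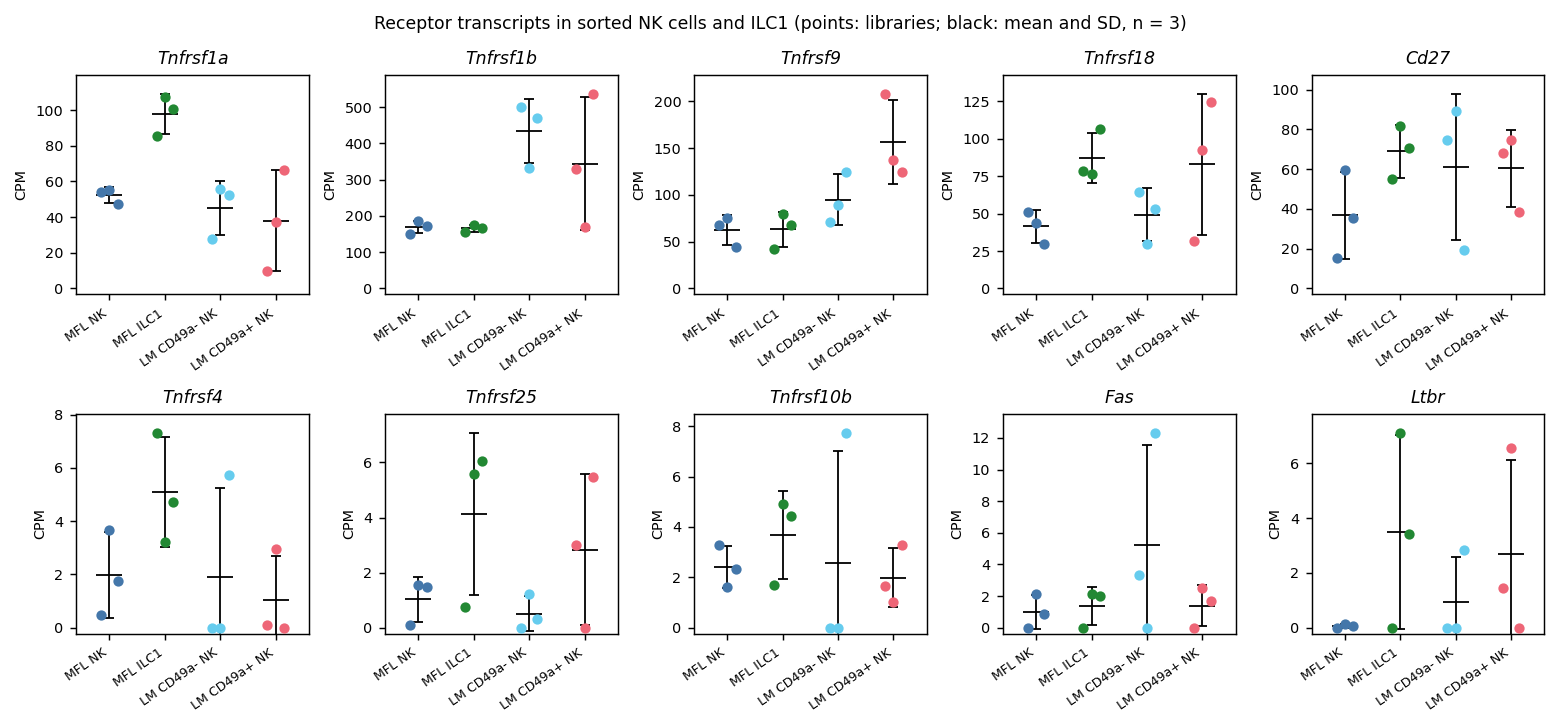
CPM of the 10 receptors in MFL NK, MFL ILC1, LM CD49a- NK and LM CD49a+ NK, 1 panel a gene with its own linear axis; points are libraries and black marks are the mean and SD (n = 3), some cut at 0. Tnfrsf9 lies at 124.8 CPM or more in the LM CD49a+ NK libraries and at 79.4 CPM or less in both MFL groups, and the lower row holds the 5 receptors with libraries at 0.

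Tnfrsf9 (4-1BB) was the receptor that set LM CD49a+ NK apart most clearly from MFL ILC1. It was at 208, 137 and 124.8 CPM in LM CD49a+ NK, at 71.0, 89.2 and 124.9 CPM in LM CD49a- NK, at 67.9, 75.6 and 44.3 CPM in MFL NK and at 42.4, 79.4 and 67.8 CPM in MFL ILC1. All 3 LM CD49a+ NK libraries exceeded every library of both MFL groups, and its range met that of LM CD49a- NK at the top. Against MFL ILC1 the log2 fold change was 1.31 ± 0.33 (edgeR adjusted p = 0.0437). The call was lost without MFL ILC1 replicate 1 (adjusted p = 0.218), without MFL ILC1 replicate 3 (adjusted p = 0.138) or without LM CD49a+ NK replicate 1 (adjusted p = 0.212). Against MFL NK the log2 fold change was 1.32 ± 0.33 and missed the threshold (edgeR adjusted p = 0.113), though it passed with DESeq2 (adjusted p = 0.0152), limma-voom (adjusted p = 0.0401), RLE scaling (adjusted p = 0.0886) and without the filter on low counts (adjusted p = 0.013). It also passed without LM CD49a- NK replicate 1 (adjusted p = 0.0931) or replicate 2 (adjusted p = 0.0884). Against LM CD49a- NK it was 0.72 ± 0.33 (edgeR adjusted p = 0.422).

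Tnfrsf1b (TNFR2) was the most abundant of the 10 in CPM. It was at 501, 333 and 469 CPM in LM CD49a- NK, at 328, 169 and 536 CPM in LM CD49a+ NK, at 150.3, 186 and 172 CPM in MFL NK and at 156, 174 and 168 CPM in MFL ILC1. The LM CD49a- NK libraries all lay above those of both MFL groups, and 1 LM CD49a+ NK library lay within the MFL range. LM CD49a+ NK exceeded MFL ILC1 by a log2 fold change of 1.06 ± 0.31, which was called by a narrow margin (edgeR adjusted p = 0.0963) and lost in 10 of 12 fits that left out 1 library, with adjusted p up to 0.413. It was also lost with limma-voom (adjusted p = 0.147), in the fit of those 2 groups (adjusted p = 0.173) and with the replicate number as a block (adjusted p = 0.115). Among the fits with a library left out, the exceptions were those without LM CD49a- NK replicate 2 and without LM CD49a+ NK replicate 2, the library with 169 CPM. LM CD49a- NK exceeded MFL NK by 1.36 ± 0.31 on the log2 scale, without overlap and not called (edgeR adjusted p = 0.243). DESeq2 (adjusted p = 0.00572), limma-voom (adjusted p = 0.0112) and the fit without the filter on low counts (adjusted p = 0.000124) called it, as did the fits without LM CD49a- NK replicate 2 (adjusted p = 0.0748), LM CD49a+ NK replicate 2 (adjusted p = 0.0649) or LM CD49a+ NK replicate 3 (adjusted p = 0.0746). LM CD49a+ NK against MFL NK had a log2 fold change of 1.02 ± 0.31, with overlap and not called (edgeR adjusted p = 0.259). DESeq2 (adjusted p = 0.0686) and the fit without the filter on low counts (adjusted p = 0.0128) called it. Of 12 fits with a library left out, 11 did not, with adjusted p up to 0.683. The exception was the fit without LM CD49a+ NK replicate 2 (adjusted p = 0.0257). LM CD49a+ NK against LM CD49a- NK had a log2 fold change of -0.34 ± 0.31 (edgeR adjusted p = 0.739).

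Tnfrsf1a (TNFR1) had another order. It was at 85.7, 107 and 100.4 CPM in MFL ILC1, at 54.3, 55.4 and 47.4 CPM in MFL NK, at 28.0, 55.5 and 52.5 CPM in LM CD49a- NK and at 9.88, 37.1 and 66.6 CPM in LM CD49a+ NK. MFL ILC1 lay above every library of the other 3 groups, and the LM CD49a+ NK libraries spread widely. Neither MFL ILC1 against MFL NK (log2 fold change 0.90 ± 0.49, edgeR adjusted p = 0.767) nor LM CD49a+ NK against MFL ILC1 (-1.37 ± 0.49, adjusted p = 0.2) was called. The first was called in a fit of those 2 groups alone (adjusted p = 0.0159) and by limma-voom (adjusted p = 0.000235). The second was called by limma-voom (adjusted p = 0.021), without the filter (adjusted p = 0.0558) and without LM CD49a+ NK replicate 3 (adjusted p = 0.0558).

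Tnfrsf18 (GITR) was at 78.3, 76.8 and 107 CPM in MFL ILC1 and at 51.4, 43.9 and 29.4 CPM in MFL NK. The groups did not overlap, and the log2 fold change of 1.07 ± 0.43 was not called (edgeR adjusted p = 0.396). It was called in the fit of those 2 groups alone (adjusted p = 0.0353) and by limma-voom (adjusted p = 0.000633). LM CD49a- NK was at 64.6, 29.8 and 52.9 CPM and LM CD49a+ NK at 31.9, 92.7 and 124 CPM, so the latter held both a library below the lowest MFL ILC1 value and one above the highest. Cd27, a receptor that marks the less mature NK cells in mice, was at 15.4, 59.3 and 35.5 CPM in MFL NK, at 54.9, 81.5 and 70.9 CPM in MFL ILC1, at 74.7, 89.1 and 19.5 CPM in LM CD49a- NK and at 68.1, 74.8 and 38.3 CPM in LM CD49a+ NK. All groups overlapped, and its largest difference, MFL ILC1 against MFL NK, was 0.91 ± 0.52 on the log2 scale (edgeR adjusted p = 0.848), called only by limma-voom among the alternatives (adjusted p = 0.0764).

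**Figure D5:**
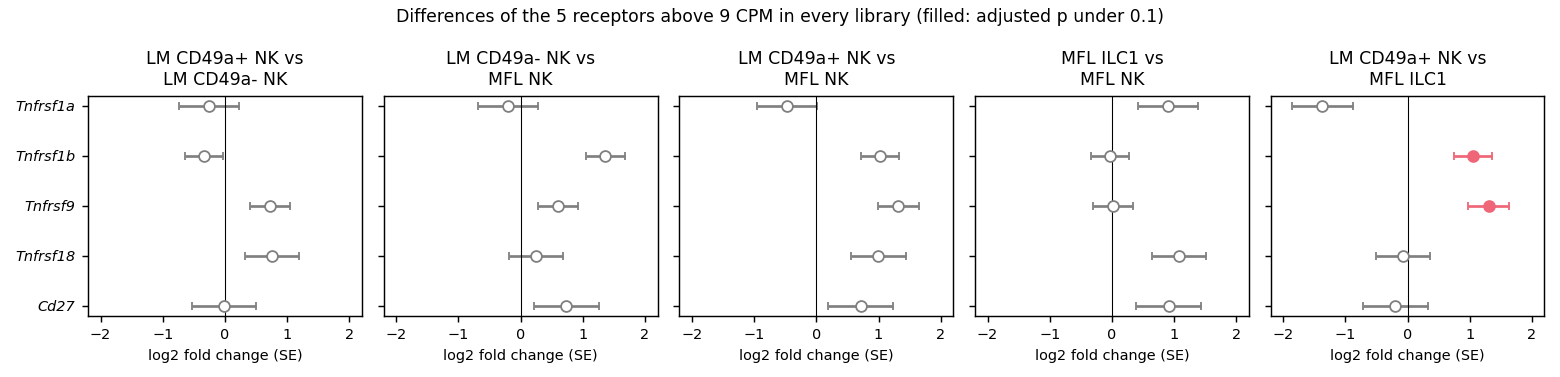
Log2 fold change with its SE of the 5 receptors above 9 CPM in every library, 1 panel for each comparison of lymphocyte groups; filled points have an edgeR adjusted p under 0.1. The filled points are Tnfrsf9 (1.31) and Tnfrsf1b (1.06) in LM CD49a+ NK against MFL ILC1.

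The 5 low receptors were read from few counts. In LM CD49a- NK, every count of Tnfrsf4 (73), Tnfrsf10b (98) and Ltbr (36) came from replicate 3, and replicates 1 and 2 were at 0. That library was also the deepest of its group, with 14386834 counts against 9252160 and 8795721, and had at least 10 counts at 12601 genes against 9885 and 9608. Without it, LM CD49a- NK held no count of these 3 receptors. Fas stood at 156 counts (12.3 CPM) there, 30 in replicate 1 and 0 in replicate 2, and was at 2.50 CPM or less in every library of the other groups. Ltbr had 0, 2 and 1 counts in MFL NK against 0, 97 and 36 in MFL ILC1, a ratio of 48.6 with a 95% counting interval of 16.3 to 238 that leaves out the spread between libraries, and 1 MFL ILC1 library was at 0. Tnfrsf4 was at 7.30, 3.22 and 4.74 CPM in MFL ILC1 and at 0.0968, 2.97 and 0 CPM in LM CD49a+ NK, without overlap (log2 fold change -2.30 ± 2.28, edgeR adjusted p = 0.795). Tnfrsf10b ranged from 0 to 7.72 CPM and Tnfrsf25 from 0 to 6.06 CPM over the 12 libraries. For all 5 the SE of the log2 fold change was 1.96 or more in every comparison with edgeR, which called none of them. For MFL ILC1 against MFL NK, limma-voom called Ltbr (log2 fold change 4.80, adjusted p = 0.00376) and Tnfrsf25 (1.95, adjusted p = 0.0985) higher.

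Counted over the 10 receptors, LM CD49a+ NK against MFL ILC1 had 2 called, both higher, where 3.58% of all genes were called. Groups did not overlap for 3 of the 10 (Tnfrsf9 higher, Tnfrsf1a and Tnfrsf4 lower), against 23.2% of all genes, and the median log2 fold change was -0.29 against -0.07. No receptor was called by edgeR in the other comparisons. Against LM CD49a- NK, LM CD49a+ NK had 1 receptor at an unadjusted p under 0.05 (11.6% of all genes with edgeR) and 0 called by DESeq2 or limma-voom, where edgeR called 0.14% of all genes, DESeq2 3.99% and limma-voom 0%, and 9.82% did not overlap. Against MFL NK it had 3 at an unadjusted p under 0.05 (9.74% of all genes), 2 called by DESeq2 (2.69% of all genes) and 1 by limma-voom (2.26%), where edgeR called 0.647% of genes and 20.1% did not overlap. Those 3 were Tnfrsf9, Tnfrsf1b and Tnfrsf18. The log2 fold change of Tnfrsf18 was 1.00 ± 0.435 (edgeR unadjusted p = 0.0342, adjusted p = 0.469). LM CD49a- NK against MFL NK had 1 at an unadjusted p under 0.05 (6.72% of all genes), 1 called by DESeq2 (1.18%) and 1 by limma-voom (0.765%), where edgeR called 0.0736% of genes and 16.2% did not overlap. MFL ILC1 against MFL NK had 1 at an unadjusted p under 0.05 (8.37% of all genes), 0 called by DESeq2 (4.91%) and 5 by limma-voom (19.5%), where edgeR called 3.06% of genes and 25.3% did not overlap. For the receptors, groups did not overlap for 0, 1, 1 and 2 of the 10 in these comparisons, in the order given. Each of these shares was below that of all genes.

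The difference that goes with CD49a in metastasis was then compared with the one in metastasis-free liver, as LM CD49a+ minus LM CD49a- NK set against MFL ILC1 minus MFL NK. No receptor was called in this interaction by edgeR, DESeq2 or limma-voom, where these called 1.03%, 2.57% and 1.32% of all genes. At an unadjusted p under 0.05 there were 0 receptors with edgeR (8.7% of all genes), 0 with DESeq2 and 1 with limma-voom, Tnfrsf1a. The interaction of Tnfrsf1a was -1.16 ± 0.69 on the log2 scale (edgeR adjusted p = 0.701, limma-voom adjusted p = 0.37).

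Genes of the pathway were called in few of these comparisons. In LM CD49a+ NK against MFL ILC1, where Tnfrsf9 and Tnfrsf1b were higher, 2 of 5 NF-kB subunits and 3 of 9 tested feedback genes were higher and none lower, where 3.58% of all genes were called. Nfkb1 and Nfkb2 had log2 fold changes of 1.05 ± 0.28 (edgeR adjusted p = 0.06) and 1.43 ± 0.36 (adjusted p = 0.0445). Nfkbia stood at 631 and 160 CPM (log2 fold change 1.98 ± 0.45, edgeR adjusted p = 0.0228), Nfkbiz at 801 and 173 CPM (2.21 ± 0.56, adjusted p = 0.0454) and Nfkbid at 200 and 42.5 CPM (2.23 ± 0.66, adjusted p = 0.0975). The medians were 1.05 for the subunits and 0.97 for the feedback genes, where all genes had -0.07. In LM CD49a- NK against MFL NK the medians were 1.20 and 1.34, with 5 of 5 and 9 of 9 genes above 0 and an all-gene median of -0.09, and none was called. In LM CD49a+ NK against MFL NK they were 0.85 and 0.77 (all genes -0.04), also with none called. The other 2 comparisons leaned the other way, with none called. LM CD49a+ NK against LM CD49a- NK had medians of -0.41 and -0.58 (all genes 0.01), with 0 of 5 and 0 of 9 genes above 0. MFL ILC1 against MFL NK had medians of -0.20 and -0.40 (all genes 0.006), with 1 of 5 and 2 of 9 genes above 0. Monocyte markers moved with LM CD49a+ NK against MFL ILC1 too: all 3 that were tested, of 4 listed, were called higher (Ccr2, Ly6c2 and Plac8). Their median log2 fold change was 2.83, and the list summed to 435 to 613 CPM against 137 to 230 CPM. It also summed to 342 to 373 CPM in MFL NK and 247 to 614 CPM in LM CD49a- NK. Ccr2 made up most of the sum in every group, and Ly6c2 was at 91.1, 50.9 and 47.9 CPM in MFL NK. The study lists Plac8 in its own signature of CD49a+ NK cells. Of the 9 macrophage markers 5 were detected in LM CD49a+ NK, while Adgre1, C1qa, C1qc and Mertk had no count there. The part of the monocyte markers in the NF-kB genes was not tested. LM CD49a+ NK and MFL ILC1 also differed in site and dissociation, and the part of either was not tested. In the same comparison, none of the 6 TRAF adaptors, 10 death-receptor genes, 13 ubiquitin and kinase genes and 9 tested other receptors was called.

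Among the ligands, Tnfsf10, which encodes TRAIL, was higher in MFL ILC1 (416 CPM) than in MFL NK (14.05 CPM) by 4.89 ± 0.46 on the log2 scale (edgeR adjusted p = 6e-06) and stood between them in LM CD49a+ NK, at 71.2 CPM. The latter was below MFL ILC1 by a log2 fold change of -2.55 ± 0.42 (adjusted p = 0.00187) and above MFL NK by 2.34 ± 0.42 (adjusted p = 0.0182), and the interaction was -3.07 ± 0.57 (adjusted p = 0.0165). TRAIL is an established ILC1 marker and is also on the ILC1 list used here to check the sort, so this is not independent of it. Ltb was higher in MFL ILC1 than in MFL NK (78.9 against 8.93 CPM, log2 fold change 3.14 ± 0.67, edgeR adjusted p = 0.0121). Tab2, which links ubiquitin chains to the TAK1 kinase, was also higher there, by 0.86 ± 0.21 (adjusted p = 0.0347). In LM CD49a+ NK against LM CD49a- NK and in LM CD49a- NK against MFL NK, no gene of the 7 lists was called, and in LM CD49a+ NK against MFL NK and the interaction only Tnfsf10 was.

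For the receptors called among lymphocytes, the genes with the most similar log2 CPM over the 12 libraries were sought among 8279 genes. For Tnfrsf1b they were Nsd3 (r = 0.963), Nr4a3 (r = 0.956) and Coq10b (r = 0.943), and for Tnfrsf9 they were Mdh2 (r = 0.903), Eef1d (r = 0.899) and Rpl8 (r = 0.898). These are descriptions over libraries that share groups and depth.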

How the data were processed

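Bulk RNA-seq of sorted cells was analyzed in 2 experiments, 12 lymphocyte and 6 macrophage libraries. Both deposited files hold estimated counts per gene, written as whole numbers and without normalization. Per the study's methods, the authors trimmed lymphocyte reads and assigned them to GRCm39 with Salmon v1.5.0. For the macrophages the labels list Trim Galore, Salmon v1.10.0 and GRCm39, and the gene model and the filter behind their 13759 genes are not given in the sources used here. The lymphocyte libraries were made from total RNA and the macrophage libraries with poly(A) beads, so transcripts without a poly(A) tail count only in the former.

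Gene IDs were named from GENCODE vM39, which held 53700 of 54309 and 13726 of 13759 IDs. The tools were edgeR v4.0.16 with DESeq2 v1.42.0 and limma v3.58.1 (R v4.3.3), and matplotlib v3.10.9 for plots (Python v3.11.15). After filterByExpr and TMM scaling, groups were tested by the quasi-likelihood method of edgeR, in 1 fit of the 12 lymphocyte libraries and 1 of the 6 macrophage libraries, with Benjamini-Hochberg adjustment. The SE of a log2 fold change is an approximation, the fold change over the root of F. Alternatives were DESeq2, limma-voom with quality weights, RLE scaling, no filter, a fit of only the groups compared, the replicate number as a block, and leaving out each library. The tests were tried on simulated counts with known changes. There DESeq2 in both experiments, and limma-voom in the macrophages, made more false calls than the threshold allows.

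All 10 receptors are named with their levels or ranges, and not every fold change of every comparison is printed. From the gene lists, the called genes with the largest change were named, at most 4 per list and direction, provided that they averaged 5 CPM or more, and others are named where their values complete a list. A gene of the death receptor signaling list is not reported here and is left out of its counts, median and plot. The members and lists were chosen with earlier results of these data known. The lymphocytes came from 3 independent sortings. The labels do not say that macrophage libraries came from separate mice, so their p-values measure the spread between these samples. Depth was 8795721 to 14386834 and 21278959 to 32267015 counts per library. Intervals on ratios of counts cover counting error only.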

Additional observations from a re-analysis of the deposited data

How the results depend on the processing

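In macrophages all alternatives kept the count of genes called within 1.5 times the 7555 of the main analysis (6560 to 7242 when a library was left out) and between 5 and 7 receptors called. The filter removes no gene there. In lymphocytes the counts moved. With DESeq2, 543 genes were called in LM CD49a+ against LM CD49a- NK (19 in the main analysis), 365 in LM CD49a+ NK against MFL NK (88), 161 in LM CD49a- NK against MFL NK (10), 667 in MFL ILC1 against MFL NK (416), 1010 in LM CD49a+ NK against MFL ILC1 (486) and 349 in the interaction (140). With limma-voom the first 5 counts were 0 (746 at an unadjusted p under 0.05, against 1579 with edgeR), 307, 104, 2645 and 935. Without the filter they were 200, 371, 158, not moved for MFL ILC1 against MFL NK, and 774, and 264 in the interaction. In fits of only the groups compared they were 11 in the first, 5 in LM CD49a- NK against MFL NK and 1213 in MFL ILC1 against MFL NK. Leaving out 1 library gave 5 to 284, 25 to 162, 1 to 107, 267 to 562, 244 to 725 and 67 to 261 genes in the order above. The cause of these moves was not tested.

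Receptors called in LM CD49a+ NK against MFL NK numbered 1 with RLE scaling, 2 with DESeq2, 1 with limma-voom and 2 without the filter (0 in the main analysis), and 0 to 1 when a library was left out. In LM CD49a- NK against MFL NK they numbered 1 with each of DESeq2, limma-voom and no filter, and 0 to 1 when a library was left out. In MFL ILC1 against MFL NK they numbered 5 with limma-voom and 2 in the fit of those groups. In LM CD49a+ NK against MFL ILC1 they numbered 1 in the fit of those groups and 0 to 2 when a library was left out (2 in the main analysis). No receptor that was called changed direction in any alternative.

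Lymphocyte libraries with the same replicate number did not deviate together (r from -0.118 to 0.0846, against -0.0994 to 0.0808 for different numbers). In macrophages r was 0.0203 to 0.282 for the same number and -0.229 to 0.168 for different numbers. Same-numbered macrophage libraries thus leaned together, with ranges that overlapped. The labels do not state a pairing, and the numbers were not taken as pairs in the main analysis. With the number as a block, 24, 101, 15, 445, 484 and 127 genes were called in lymphocytes, in the order above, and 7512 in macrophages. The block left 1 receptor in LM CD49a+ NK against MFL ILC1, Tnfrsf9, with Tnfrsf1b at adjusted p = 0.115, and ended the call of Tnfrsf10b in macrophages (adjusted p = 0.136), where Tnfrsf1a passed (adjusted p = 0.0768).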
